A study of Mus musculus with 2 samples.

Results

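Messenger RNA of 37 genes of glycolysis and of the response to low oxygen was compared between 2 cultures of mouse marrow progenitors that express the leukaemia fusion PML/RARa in different forms. The genes were listed by symbol, and all 37 were found once each among the 34745 gene models of both libraries. This fusion joins PML, which organises nuclear bodies, to the receptor RARA for retinoic acid, and it is the driver of acute promyelocytic leukaemia. Marrow of C57BL/6 mice given 5-fluorouracil was enriched for progenitors, transduced with lentivirus with the help of polybrene, grown in serum-containing medium with SCF, IL-3, IL-6, hydrocortisone and 2-mercaptoethanol, and sorted. The labels give 1 library with the wild-type fusion, PML/RARa (WT), and 1 with the form PML/RARa (2KR), the series title naming 2 lysines of the fusion as its subject. Everything else in the protocol was shared by both libraries. The arm with the empty pMSCV vector was not analysed here, so neither form was compared with cells lacking the fusion. For the oxygen level of the cultures, and for how many mice were pooled, no value is given in the sources used here.

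Glycolysis splits glucose into pyruvate in the cytosol, and lactate dehydrogenase turns pyruvate into lactate so that the path can run on. Low oxygen stabilises the transcription factor HIF1A, which prolyl hydroxylases of the EGLN family otherwise mark for destruction by VHL. HIF1A, paired with ARNT, binds a short DNA core, the hypoxia response element, and raises glucose transporters, many glycolytic enzymes, pyruvate dehydrogenase kinases and mitophagy receptors. Stem cells of the marrow are known for a glycolytic, low-oxygen state, and the same genes also answer to MYC and to growth factor signals.

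The depth was 17606168 counts for WT and 20462011 for 2KR. With 1 library per form there was no replicate error, no test was run, and each difference describes these libraries only. Folds are ratios of CPM (the count over the TMM-scaled library total), each with an exact 95% interval that covers counting error only. A model was called different when the log2 ratio of CPM + 1 was at least 1 in size, which is 2-fold, and 1.5-fold was used as a second size. The comparison took the 12466 models whose mean reached 1 CPM, and the 37 genes were all among them. In bulk RNA, fewer cells of a type and less RNA per cell cannot be told apart.

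The labelled cell type was read against markers. All 8 stem and progenitor markers were among the compared models, Kit at 1359 and 1158 CPM and Cd34 at 388 and 723 CPM in WT and 2KR, although Mecom had 0 counts in WT. Markers of mast cells and basophils summed to 6633 and 3450 CPM, with 5 of the 7 compared lower in 2KR by 2-fold or more, 1 higher by as much and Fcer1a at 0 in both. Neutrophil and granule markers summed to 230 and 525 CPM, of which Ctsg gave 212 and 487. Only 2 of the 8 were compared, Mpo and Ctsg, both at least 2-fold higher in 2KR. The rest fell short of a mean of 1 CPM. Elane had 5 and 10 counts, Prtn3 6 and 14, S100a9 11 and 6, and Camp 0 in both. Monocyte and macrophage markers summed to 260 and 121 CPM, with 2 of the 6 compared at least 2-fold lower and 1 higher by as much. Megakaryocyte markers summed to 1003 and 1296 CPM, of which Itga2b gave 867 and 858, with an interval that held 1. Past 2-fold were 2 of 5, Pf4 being 3.35-fold and Ppbp 2.64-fold higher in 2KR. Ratios were above 1 for 3 of the 5 and below 1 for 2, among them Vwf with 42 and 27 counts, 1.83-fold lower by its CPM. Red cell markers summed to 18.9 and 27.3 CPM, with Hba-a1 at 187 and 415 counts, Hbb-bt at 55 and 26, and Hba-a2 and Hbb-bs at 0 in both. Lymphocyte markers summed to 31.6 and 1.16 CPM, nearly all of it in WT from Il7r, which had 548 and 12 counts and was 53.8-fold lower in 2KR, while Cd3e was at 0 in both. Stromal and endothelial markers summed to 566 and 694 CPM, nearly all of it from Pecam1 at 550 and 669 CPM. By the log2 ratio of CPM + 1, 0 of the 5 compared were past 2-fold, and Lepr was at 0 in WT. By CPM alone, Cdh5 was 2.00-fold higher in 2KR, while Cxcl12 was 2.41-fold and Col1a1 2.01-fold lower, from 45 and 29 counts in WT. The part of these cell type markers in the ratios below was not tested.

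The 37 genes took nearly equal shares of the libraries. The share was 1.007% in WT, with a Wilson 95% interval of 1.003 to 1.012, while in 2KR it was 1.005%, with an interval of 1.001 to 1.009. On the log2 scale of 2KR over WT their median was -0.03, beside 0.02 over all compared models, with quartiles of -0.41 and 0.15 beside -0.21 and 0.23. A single gene, Hk3, was at least 2-fold higher, and 2.66% of all compared models were. At least 2-fold lower were 3 genes, Ldhb, Eno2 and Pfkp, where 4.56% of all models were. At 1.5-fold the lower genes numbered 6, with Vegfa, Ndrg1 and Slc2a1 added, beside 9.67% of all models, and Hk3 was again the only higher gene, beside 6.92%. In either direction 4 genes passed 2-fold, or 10.8%, beside 7.22% of all models, and 7 passed 1.5-fold, or 18.9%, beside 16.6%. Since 1 gene of 37 is 2.70%, these shares lie within a few genes of the background. Just inside 1.5-fold lay Slc2a1 at a log2 ratio of -0.63, and just outside lay Gapdh at -0.55 and, on the other side, Slc16a1 at 0.55. The ratio was below 1 for 21 of the 37 genes, beside 47.7% of all models, and above 1 for 16. The counting interval lay wholly below 1 for 17, or 45.9%, beside 28.5% of all models, and wholly above 1 for 14, or 37.8%, beside 31.6%. Such intervals narrow as counts rise, and the median counts of the 37 genes were 2827 in WT and 2906 in 2KR. Models of a like level were not compared, so these shares are not a measure of how many genes differ.

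**Figure D1:**
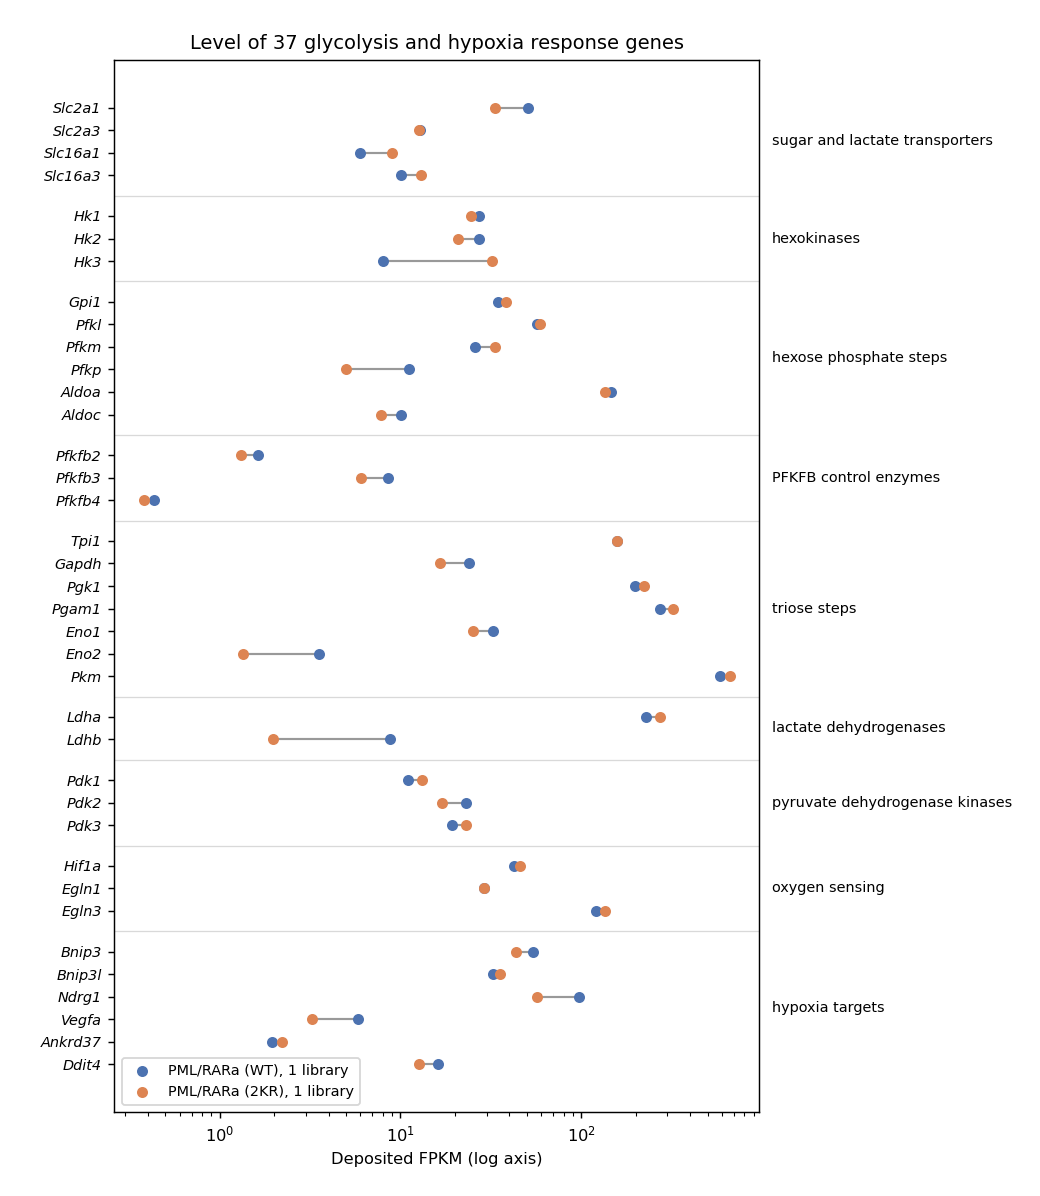
Deposited FPKM (horizontal log axis) of the 37 genes, ordered by role, in the WT library (blue) and the 2KR library (orange), with a grey line joining the 2 values of a gene. Pkm is highest at 588 and 665 FPKM, Pfkfb4 lowest at 0.435 and 0.380, and the longest lines are those of Hk3, Ldhb, Eno2 and Pfkp.

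Promoter windows were searched for the core of the hypoxia response element, since 1 factor, HIF1A, is known to act on many of these genes while their ratios went both ways. RefSeq windows on GRCm38, from 250 bases before to 50 after a gene's start, were matched by symbol for 34 of the 37 genes, 51 windows in all. The letters searched were ACGTG and GCGTG on either strand. The core on both strands overlaps itself in CACGTG, which is also the E-box read by MYC and by USF factors. Shown are the stretches before the start of both lactate dehydrogenase genes, whose ratios lay on opposite sides of 1, of Hk3, the gene that was most above 1, and of Bnip3, a HIF target below 1. Each is 5′ to 3′ on the gene's own strand, lies outside annotated exons, and has core matches in capitals.
Ldha (chr7:46845604-46845803, plus strand): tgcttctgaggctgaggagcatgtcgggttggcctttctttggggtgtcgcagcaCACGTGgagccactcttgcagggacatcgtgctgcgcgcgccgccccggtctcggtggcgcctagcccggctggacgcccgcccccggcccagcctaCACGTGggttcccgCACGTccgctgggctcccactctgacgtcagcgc
Ldhb (chr6:142507958-142508157, minus strand): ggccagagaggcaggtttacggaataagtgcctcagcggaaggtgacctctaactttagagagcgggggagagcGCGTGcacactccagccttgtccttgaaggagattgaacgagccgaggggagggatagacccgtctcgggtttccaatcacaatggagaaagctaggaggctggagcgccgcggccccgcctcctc
Hk3 (chr13:55021386-55021585, minus strand): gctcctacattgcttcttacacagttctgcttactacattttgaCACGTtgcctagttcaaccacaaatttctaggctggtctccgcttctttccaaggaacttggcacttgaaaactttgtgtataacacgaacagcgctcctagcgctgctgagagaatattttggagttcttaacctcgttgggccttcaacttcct
Bnip3 (chr7:138909520-138909719, minus strand): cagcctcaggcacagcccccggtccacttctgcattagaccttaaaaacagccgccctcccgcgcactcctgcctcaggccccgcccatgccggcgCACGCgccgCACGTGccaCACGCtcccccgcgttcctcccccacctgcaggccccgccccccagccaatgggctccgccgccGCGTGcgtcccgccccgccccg
The Ldha stretch lies inside the deposited Ldha model, in an intron of longer transcripts, and holds CACGTG at 2 places. Bnip3 has CACGTG once with other cores on both sides of it, whereas Ldhb and Hk3 have a single core each. A core was present in 41 of the 51 windows, or 80.4%, beside 62.3% of the 11757 windows of compared models and 43.8% of all 32851 windows. Mean GC content was 61.1% in the windows of the 37 genes and 60.7% in those of compared models, which is nearly the same. In all windows it was lower, at 53.8%. CACGTG was in 15.7% of the windows of the 37 genes and 10.04% of those of compared models. Of the 31 genes with a core in any window, 14 had a ratio above 1 and 17 below, and the 3 without were Eno2, Gpi1 and Tpi1. A match is a description of letters and not a bound site.

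**Figure D2:**
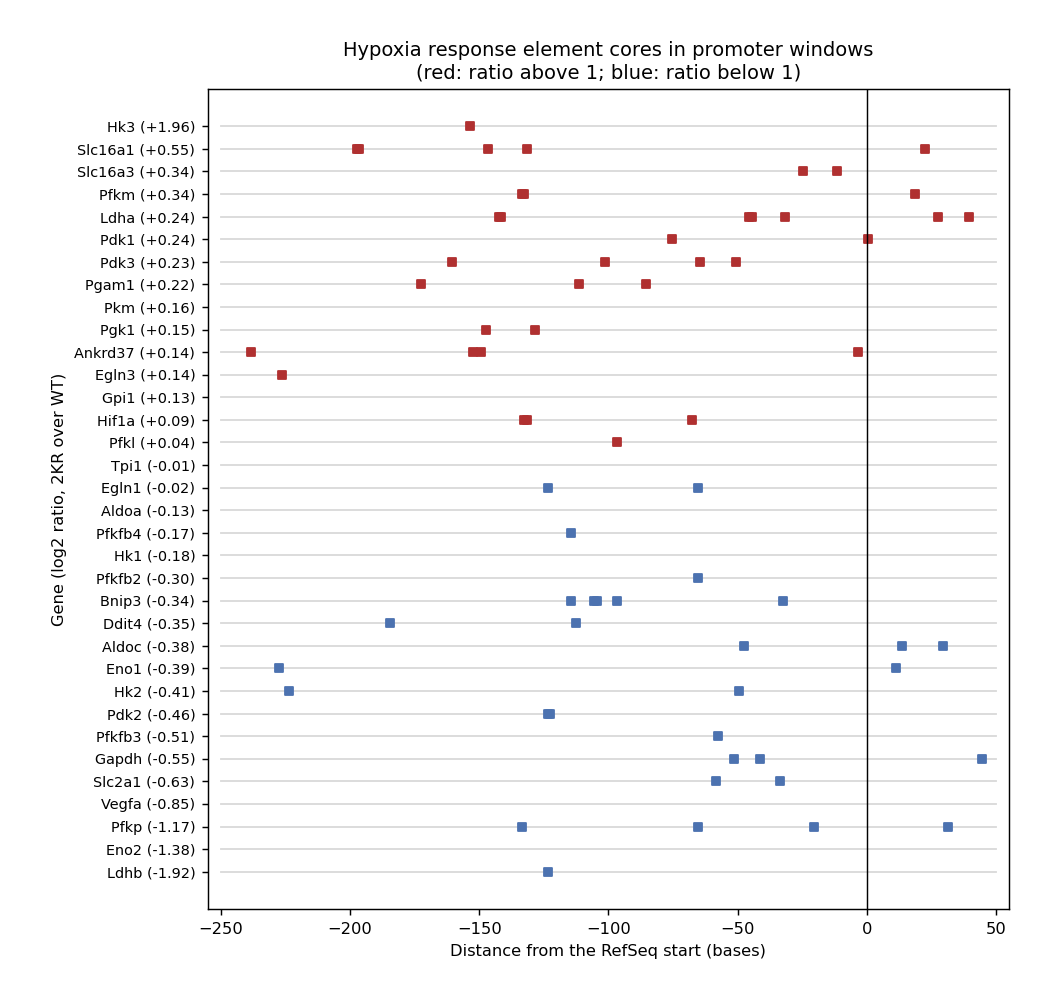
Distance of each core match from the RefSeq start (horizontal axis, in bases) in the most upstream window of 34 genes, ordered by log2 ratio of 2KR over WT (in brackets), with red squares for ratios above 1 and blue for ratios below. In these windows 13 of the 15 genes above 1 and 14 of the 19 below 1 hold a core, so both sides of the order carry it.

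Entry of glucose and exit of lactate were read from 4 transporters. Slc2a1 (ENSMUSG00000028645, chromosome 4, 119108711 to 119137983), the widespread glucose transporter GLUT1 and a HIF target, had 268 and 173 CPM, 1.55-fold lower in 2KR (1.48 to 1.62). Slc2a3, the high-affinity glucose transporter GLUT3, had 140.3 and 138 CPM, and its interval held 1. Slc2a1 took 79.96% of the FPKM of this pair in WT and 72.4% in 2KR. The proton-linked lactate transporters lay on the other side. Slc16a1, or MCT1, had 26.6 and 39.5 CPM, 1.49-fold higher (1.32 to 1.67), and Slc16a3, or MCT4, had 88.4 and 112 CPM, 1.27-fold higher (1.19 to 1.35). None of the 4 reached 2-fold.

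The hexokinases, which phosphorylate glucose and so trap it in the cell, held the gene most above 1. Hk3 (ENSMUSG00000025877, chromosome 13, 55005985 to 55021385), the hexokinase of myeloid cells, had 864 and 4024 counts, or 49.4 and 195 CPM, 3.95-fold higher in 2KR (3.67 to 4.26). Hk1, the housekeeping form bound to mitochondria, had 341 and 301 CPM, 1.13-fold lower (1.09 to 1.17). Hk2, the inducible form and a HIF target, had 187 and 141 CPM, 1.33-fold lower (1.26 to 1.397). Per length, Hk3 was the lowest of the 3 in WT and the highest in 2KR: its share of their summed FPKM was 12.9% in WT and 41.6% in 2KR. Hk1 went from 43.7% to 31.6% and Hk2 from 43.4% to 26.8%. The ratio of 2 genes within a library needs neither scaling nor gene length, and by this measure Hk3 over Hk1 was 4.48 times as high in 2KR (4.12 to 4.86) and Hk3 over Hk2 was 5.25 times as high (4.798 to 5.74). The summed FPKM of the 3 genes was 62.5 in WT and 77.4 in 2KR. The granule genes Mpo and Ctsg were higher in 2KR as given above, but most markers of that list had too few counts to be compared. The part of these markers in the Hk3 ratio was not tested.

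**Figure D3:**
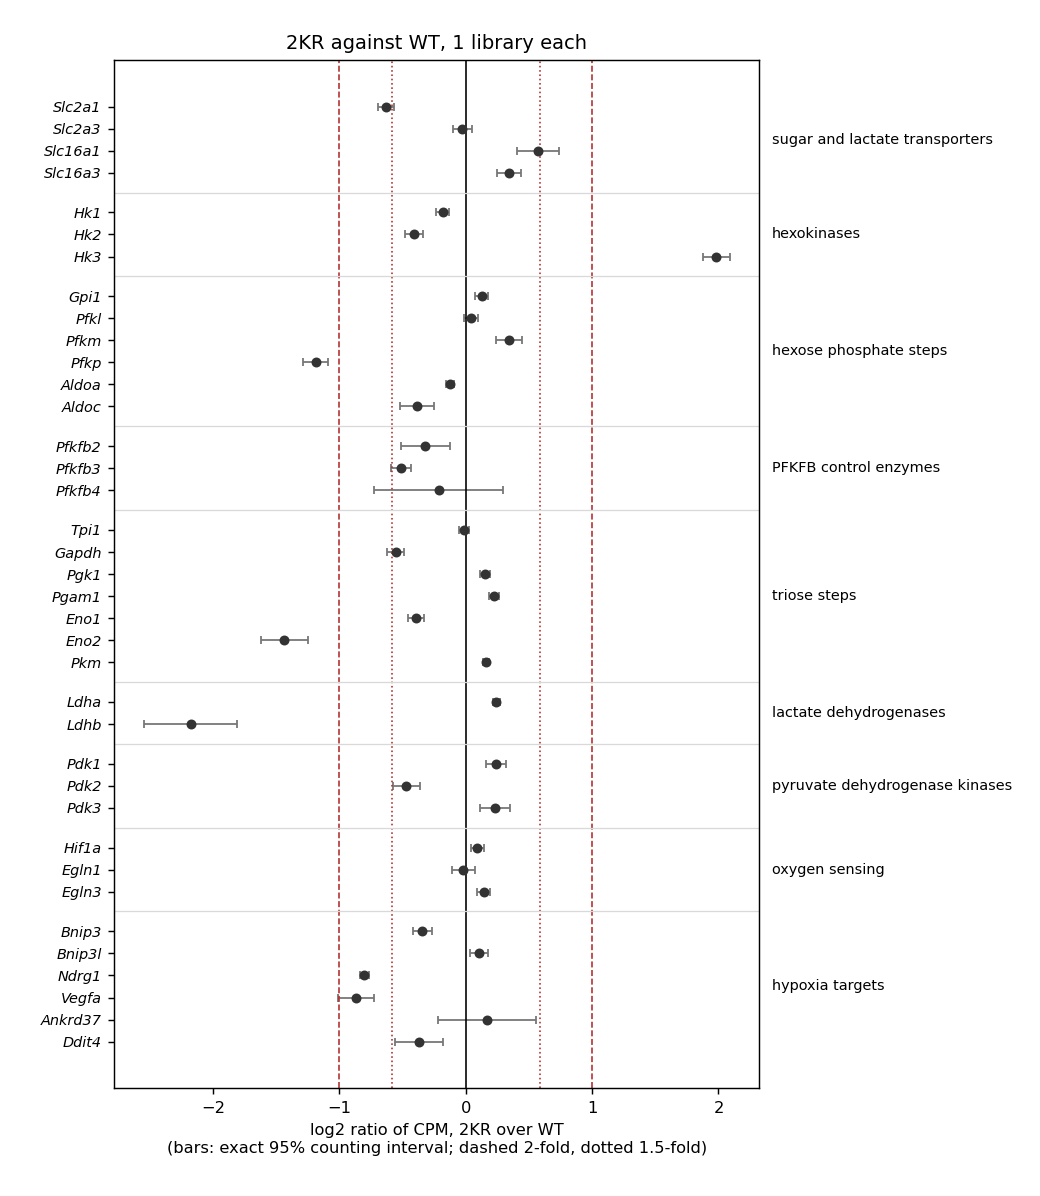
The log2 ratio of CPM, 2KR over WT (horizontal axis), of each of the 37 genes by role, with exact 95% counting intervals as bars and lines at 1.5-fold (dotted) and 2-fold (dashed). Hk3 stands alone on the right at 3.95-fold, Ldhb, Eno2 and Pfkp lie beyond 2-fold on the left, and the bulk lies within 1.5-fold.

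In the hexose phosphate steps, the 3 subunit genes of phosphofructokinase, the main control point of the path, did not move together. Pfkp (ENSMUSG00000021196, chromosome 13, 6579768 to 6648777), the platelet-type subunit, had 2334 and 1208 counts, or 133 and 58.6 CPM, 2.28-fold lower in 2KR (2.12 to 2.44). The muscle-type Pfkm had 77.3 and 98.1 CPM, 1.27-fold higher (1.18 to 1.36), and the liver-type Pfkl had 278 and 286 CPM, with an interval that held 1. Pfkl was the main subunit gene in both libraries, with 60.4% and 60.7% of the FPKM, while Pfkp went from 11.9% to 5.09% and Pfkm from 27.7% to 34.3%. The ratio of Pfkm to Pfkp was 2.89 times as high in 2KR (2.62 to 3.19). Pfkp shares 372 bases at its edge with Pitrm1 on the other strand, which had 2357 and 2618 counts. Pfkm, with 1352 and 2021 counts, shares 1156 bases with Senp1 on the other strand, which had 1609 and 2119. A part of the reads of either gene in such a pair could be assigned to the other if strand was not used.

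The other hexose steps differed little. Gpi1, the isomerase of glucose phosphate, had 319 and 349 CPM, 1.09-fold higher (1.05 to 1.13). Aldoa, the main aldolase, which cleaves the hexose, had 871 and 798 CPM, 1.09-fold lower (1.07 to 1.12), and the minor form Aldoc had 56.2 and 43.0 CPM, 1.31-fold lower (1.19 to 1.43). The PFKFB enzymes make and remove the sugar phosphate that switches phosphofructokinase on. Their 3 genes all had ratios below 1: Pfkfb3, the inducible kinase-rich form, had 162 and 113 CPM, 1.43-fold lower (1.35 to 1.51), and Pfkfb2 had 25.1 and 20.1 CPM, 1.25-fold lower (1.09 to 1.43). Pfkfb2, with 438 and 414 counts, shares 7032 bases with Yod1 on the other strand, which had 383 and 535, so the same limit holds. Pfkfb4 was the lowest of all 37 genes, with 66 and 67 counts, and no difference was detectable at this depth (ratio 0.861, interval 0.604 to 1.23).

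Of the roles into which the 37 genes were sorted, the triose steps had the highest summed CPM, 3783 in WT and 3949 in 2KR. Pkm, pyruvate kinase, was the highest of the 37 genes at 1538 and 1716 CPM, 1.12-fold higher in 2KR (1.098 to 1.13). Pgam1, phosphoglycerate mutase, had 501 and 585 CPM, 1.17-fold higher (1.14 to 1.201), and Pgk1, phosphoglycerate kinase and a classical HIF target, had 607 and 674 CPM, 1.11-fold higher (1.08 to 1.14). Tpi1, the triose phosphate isomerase, had 625 and 619 CPM and an interval that held 1. None of these 4 genes came near 1.5-fold.

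Enolase and Gapdh were lower. Eno2 (ENSMUSG00000004267, chromosome 6, 124760053 to 124769673), the enolase of neurons and a HIF target, had 807 and 352 counts, or 46.2 and 17.1 CPM, 2.70-fold lower in 2KR (2.38 to 3.07). Eno1, the widespread enolase, had 258 and 197 CPM, 1.31-fold lower (1.26 to 1.37), and took 90.2% of enolase FPKM in WT and 94.96% in 2KR. Gapdh (ENSMUSG00000057666, chromosome 6, 125161715 to 125166467), the dehydrogenase of glyceraldehyde phosphate and a common reference gene, had 208 and 142 CPM, 1.47-fold lower (1.399 to 1.54).

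The levels of several triose genes are uncertain because of copies. Gapdh was read at 23.97 and 16.5 FPKM, far under its neighbours in the path, Tpi1 at 157 and 158 FPKM and Pgk1 at 197 and 222. In GENCODE M21, 184 pseudogene models resemble Gapdh at 90% identity or more over at least 300 bases, and 10 of them were matched to models of the files, with 74 counts in WT and 123 in 2KR. Such models were also found for 11 other genes of the 37, among them Ldha with 17, Pkm with 9 and Eno1 with 7. A copy of Gpi1, 98.7% identical, had 635 and 714 counts, and Gpi1 with it was 1.08-fold higher (1.04 to 1.11). Copies of Pgam1, 1 of them 100% identical over 765 bases, had 655 and 883 counts, and Pgam1 with them was 1.17-fold higher (1.14 to 1.198). For Ldhb, 1 such model, 98.0% identical, was not matched to the files. Reads that match several copies may be split or lost, and their part in the low Gapdh level was not tested. The retrotransposed copy Eno1b, 99.5% identical to Eno1 over 1736 bases, had 1905 and 1854 counts, and Eno1 with it was 1.28-fold lower (1.24 to 1.33). With its copies in the files added, Gapdh was 1.44-fold lower (1.37 to 1.51). The added counts changed the direction of neither Eno1 nor Gapdh, but those of the Gapdh copies were too few to do so. Similar models outside the files, and reads lost in counting, could not be added.

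The sister genes of lactate dehydrogenase lay on opposite sides of 1. Ldha, the subunit that favours lactate and a HIF and MYC target, had 1053 and 1246 CPM, 1.18-fold higher in 2KR (1.16 to 1.21). Ldhb (ENSMUSG00000030246, chromosome 6, 142490249 to 142507957), the heart-type subunit that favours pyruvate, had 302 and 79 counts, or 17.3 and 3.83 CPM, 4.51-fold lower in 2KR (3.51 to 5.85). Ldhb was minor in both, with 3.68% of the summed FPKM in WT and 0.712% in 2KR. Per length, Ldha exceeded Ldhb 26.2 times in WT and 139 times in 2KR, and the ratio of these ratios was 5.33 (4.14 to 6.92). Their promoter stretches printed above have cores in 3 separate places before Ldha and in 1 before Ldhb, which is a description of letters.

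Over the 11 families with more than 1 gene on the list, 19 pairs were compared in this way. In 4 pairs the interval held 1. In 6 pairs the ratio of the sisters differed at least 2-fold between the libraries, all of them pairs with Hk3, Pfkp, Eno2 or Ldhb. These are the 4 genes already past 2-fold alone, so the 6 pairs restate those calls. Pairs of other compared models were not set beside them. Each of these 4 genes was the lowest of its family per length in WT. Of the families without such a gene, Pdk1 over Pdk2 was 1.63 times as high in 2KR (1.49 to 1.79) and Slc2a3 over Slc2a1 was 1.52 times as high (1.42 to 1.63). The summed FPKM of each step differed less than these 4 genes did. This follows from picking the 4 by their ratios and from their low levels in WT, and is no separate result. The steps ranged from glyceraldehyde phosphate dehydrogenase, at 0.69 of its WT level in 2KR, and enolase at 0.732, to hexokinase at 1.24.

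**Figure D4:**
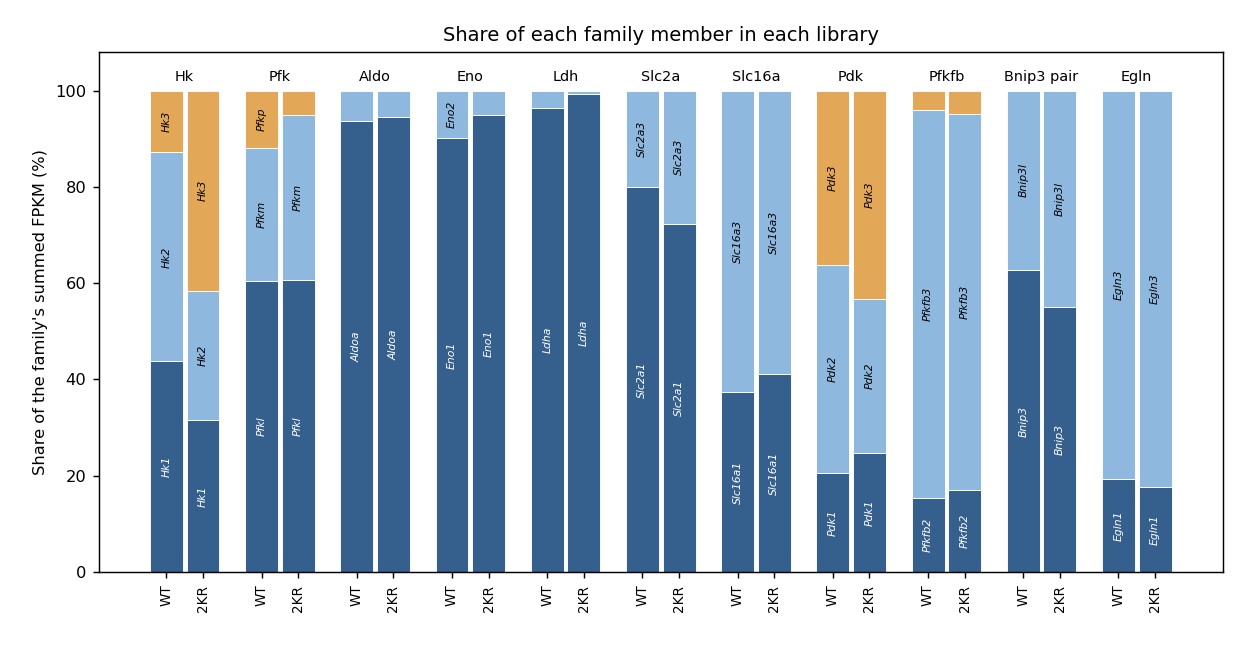
Share of each gene in the summed FPKM of its family (vertical axis, in percent) in the WT and the 2KR library, for 11 families, 1 pair of bars each. Hk3 goes from 12.9% to 41.6% of the hexokinase bar, Pfkp from 11.9% to 5.09% of the phosphofructokinase bar, and Ldhb from 3.68% to 0.712% of the lactate dehydrogenase bar.

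Pyruvate dehydrogenase kinases shut the entry of pyruvate into the mitochondrion. Pdk1, the form raised by HIF1A, had 125 and 147 CPM, 1.18-fold higher in 2KR (1.11 to 1.25), and Pdk3 had 59.3 and 69.5 CPM, 1.17-fold higher (1.08 to 1.27). Pdk2, the widespread form, had 91.0 and 65.7 CPM, 1.38-fold lower (1.29 to 1.49). Per length, Pdk2 led in WT with 43.3% of the FPKM of the 3 and Pdk3 led in 2KR with 43.4%.

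The genes of oxygen sensing differed little. Hif1a, the oxygen-regulated subunit, had 298 and 318 CPM, 1.06-fold higher in 2KR (1.03 to 1.105). Its messenger level says nothing of the protein, which oxygen controls by breakdown. Egln1, the main prolyl hydroxylase, had 103 and 101 CPM with an interval that held 1. Egln3, a hydroxylase that HIF1A itself raises, had 323 and 357 CPM, 1.103-fold higher (1.07 to 1.14), and per length exceeded Egln1 in both libraries, at 121 and 135 FPKM against 29.04 in each.

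The remaining hypoxia targets went both ways, with 4 of 6 below 1. Ndrg1 (ENSMUSG00000005125, chromosome 15, 66929321 to 66969640), a stress protein induced by low oxygen, had 14516 and 9819 counts, or 830.3 and 477 CPM, 1.74-fold lower in 2KR (1.698 to 1.79). Vegfa, the angiogenic growth factor, had 61.1 and 33.5 CPM, 1.82-fold lower (1.66 to 2.01). Ddit4, an inhibitor of mTOR signalling that glucocorticoids also raise, had 27.4 and 21.3 CPM, 1.29-fold lower (1.13 to 1.47). The mitophagy receptors parted: Bnip3 had 173 and 136 CPM, 1.27-fold lower (1.205 to 1.34), and Bnip3l had 167 and 180.1 CPM, 1.08-fold higher (1.03 to 1.13). The copy Bnip3l-ps, 99.4% identical, held 1470 and 1834 counts, so the split of reads between them is uncertain. Ankrd37, a small HIF target, had 99 and 131 counts, and its difference was not detectable at this depth (ratio 1.12, interval 0.858 to 1.47).

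Other genes of these paths came from lists that do not hold the 37. Counts of genes past a fold are again by the log2 ratio of CPM + 1. On it, none of 10 compared genes related to glycolytic enzymes by name or function reached 1.5-fold. Not all 10 are enzymes of glycolysis itself: Pgam5 and Ldhd are related by name, and Eno1b is the copy of Eno1 given above. The median was 0.02, with Pgam5 1.48-fold higher at 24.5 and 36.3 CPM, Eno3 1.55-fold higher by its CPM at 65 and 119 counts (1.14 to 2.14), Bpgm 1.22-fold lower at 46.8 and 38.3 CPM, and Ldhd at 176 and 175 CPM. Of 6 further transporters, Slc2a8 was 1.61-fold lower, from 31.9 to 19.8 CPM. Emb, a partner protein of lactate transporters, had 258 and 348 CPM, and Bsg, the other partner, 279 and 296.

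The subunits and regulators around HIF1A had a median of -0.10 over 14 genes. The ratio was below 1 for 10, beside 47.7% of all models, and 2 were lower by 1.5-fold or more, beside 9.67%. None passed 2-fold, and for 6 of the 14 the counting interval held 1. Hif3a had 138 and 85 counts, 1.91-fold lower, and the coactivator gene Crebbp had 123 and 73.5 CPM, 1.68-fold lower. Cited2, which competes with HIF1A for that coactivator, was abundant at 1730.1 and 1291 CPM, 1.34-fold lower. Arnt2 had 27 and 51 counts, a ratio of CPM of 1.60 whose interval held 1 (0.986 to 2.66). Further hypoxia targets had a median of -0.08 over 28 genes, with 2 at least 2-fold lower and 1 higher, beside 4.56% and 2.66% of all models. Among the lower ones P4ha2, a collagen prolyl hydroxylase, had 161 and 49.8 CPM, 3.23-fold lower. Stc2, a secreted glycoprotein, had 72 and 239 counts, 2.82-fold higher, and Ero1l, the oxidase of the endoplasmic reticulum, had 331 and 265 CPM.

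The paths that glycolysis feeds showed no gene past 2-fold. Enzymes of the tricarboxylic acid cycle had a median of 0.09, and 14 of 16 had ratios above 1, beside 6515 of all 12466 compared models. For these 16 genes the counting interval lay wholly above 1 for 6, wholly below 1 for 1 and held 1 for 9. The largest ratios were those of Suclg1 at 65.9 and 90.7 CPM, Idh3a at 55.2 and 62.8 and Fh1 at 44.2 and 50.04. The pentose phosphate path had a median of 0.12 over 7 genes, with Tkt at 397 and 490 CPM (1.23-fold higher), Taldo1 at 86.9 and 105 and Pgd at 184 and 163. Of the 9 genes of pyruvate entry, Pdp1, the phosphatase that opposes the kinases above, was 1.47-fold higher, from 33.1 to 48.5 CPM, Dlat 1.26-fold higher and Pdha1 1.07-fold higher, while Mpc1 had 106 and 95 counts.

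Glycogen and gluconeogenesis genes went both ways, 2 of 9 at least 1.5-fold lower and 1 higher, beside 9.67% and 6.92% of all models. Pcx, pyruvate carboxylase, had 71.7 and 37.3 CPM, 1.92-fold lower, and Pygm had 46 and 27 counts, 2.01-fold lower by its CPM (1.22 to 3.36). G6pc3, the glucose phosphatase needed by neutrophils, had 38.0 and 70.4 CPM, 1.85-fold higher, and Pygl, liver glycogen phosphorylase, 145 and 177. Among 12 genes of glucose sensing and energy stress, Arrdc4 had 131 and 90 counts, 1.72-fold lower. Txnip, a brake on glucose uptake that glucose induces, had 887 and 678 CPM, 1.31-fold lower, and Mlxip, a glucose-responsive factor acting on it, 118 and 82.8 CPM, while Sesn2 was 1.34-fold higher.

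**Figure D5:**
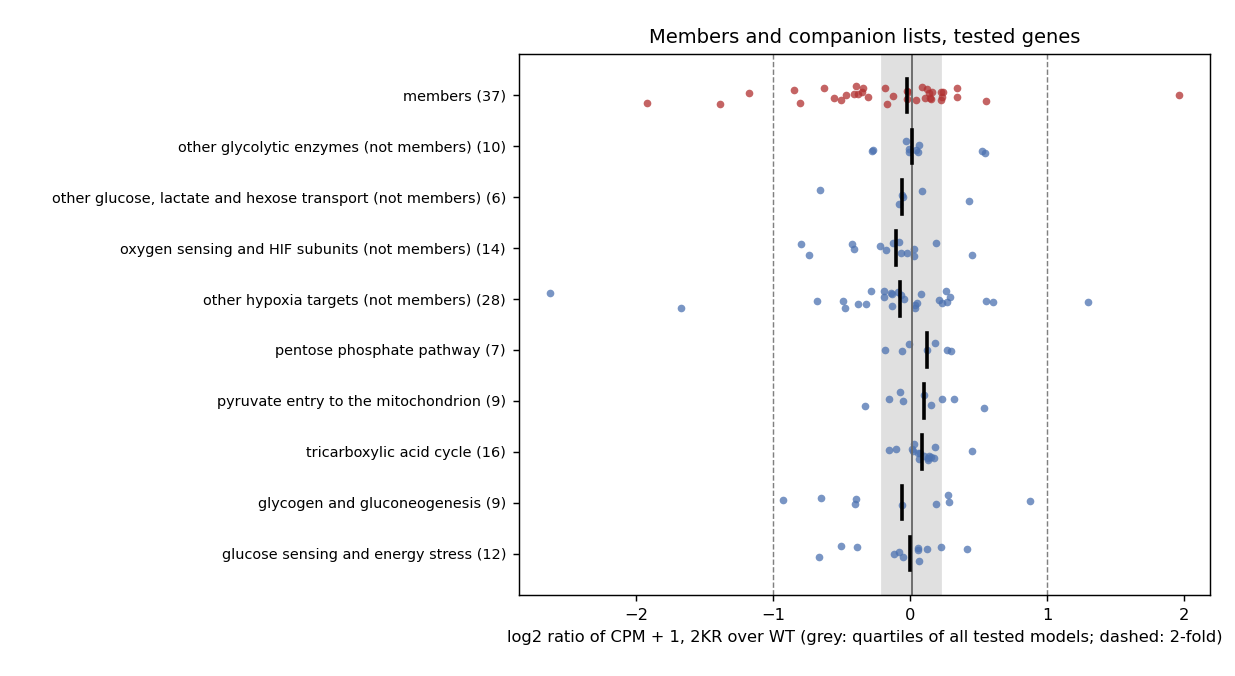
The log2 ratio of CPM + 1, 2KR over WT (horizontal axis), of the 37 genes (red) and of the compared genes of 9 further lists (blue), with black bars at the medians, the quartiles of all compared models in grey and 2-fold as dashed lines. The medians lie between -0.10 and 0.12, inside the grey band, and the points beyond 2-fold include Hk3, Ldhb, Eno2, Pfkp, P4ha2 and Stc2.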

How the data were processed

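The submitters' processing notes name the aligner HISAT2 2.0.4 and, as build, GRCm38. For the counting program, annotation and strand setting, nothing is given in the sources used here. Each gene model has a raw count and an FPKM in both deposited tables, per the file headers. The deposited FPKM equals the count divided by a fixed length and the library total within 0.1% in 15403 of 15403 models with counts in both.

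Counts were scaled with TMM factors of edgeR 4.0.16 (R 4.3.3), 0.993 for WT and 1.007 for 2KR, and log2 ratios took a pseudocount of 1 CPM, which understates low genes. FPKM was used to compare levels between genes. Ratio intervals are exact Clopper-Pearson, and those of gene pairs exact conditional odds ratios. Reads are not independent molecules, so intervals cover counting error only. Calculations, tested on simulated data, ran in Python 3.11.15 with scipy 1.17.1, pandas 2.3.3 and numpy 2.4.6. Similar models were found with blastn 2.17.0 in GENCODE M21, and promoter sequences are those of RefSeq on GRCm38.p6. All 37 genes are named. From each further list the 3 compared genes with the largest log2 ratios in size and the most abundant were named, and Eno1b and Bnip3l-ps as copies; some genes that this rule names are not reported here. The genes, lists and tests were chosen with earlier results of these data known.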

Additional observations from a re-analysis of the deposited data

How the results depend on the processing

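With DESeq2 1.42.0 size factors, library totals alone or without mitochondrial models, centred ratios, pseudocounts of 0.1 or 5 CPM, and filters of none or of 5 CPM on the mean, 1 gene remained at least 2-fold higher and 3 at least 2-fold lower. The filter at 5 CPM left 36 of the 37 genes. The shares of all models at least 2-fold higher and lower, 2.66% and 4.56%, were 1.18% and 2.38% with the pseudocount of 5 CPM and 1.33% and 2.26% on FPKM + 1. On FPKM + 1 the lower genes were 2, since Eno2 came to a log2 ratio of -0.97. The counts at 1.5-fold, 1 higher and 6 lower, were the same under all 9 alternatives, and the median ranged from -0.04 to -0.005. Egln1 and Tpi1 changed sign with library totals alone and on FPKM, and no other gene did. A pseudocount of 5 CPM moved Ldhb to -1.33. No paired analysis was possible because each form has 1 library, and for the same reason no replicate could be left out. Variation between cultures was not measured. Depth limits Pfkfb4 and Ankrd37, whose counting intervals hold 1.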

Other observations

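The chromosomal surroundings of the 4 genes past 2-fold were read from compared models within 250 kb. Around Hk3, 5 models had a median log2 ratio of -0.10 and 0 reached 2-fold. The 4 models around Ldhb had a median of 0.20 and 0 reached 2-fold, and the single model beside Pfkp, Pitrm1, was at -0.08. Around Eno2 on chromosome 6, 19 models, Tpi1 among them, had a median of -0.01, with 1 at least 2-fold higher, Lag3, an inhibitory receptor of lymphocytes, and 1 at least 2-fold lower, Atn1, a corepressor. Tpi1 was at -0.01. Pitrm1, Senp1, Yod1, Lag3 and Atn1 were named after their values were seen.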
